A study of Mus musculus with 48 samples.

Results

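The 10 genes of vitamin C uptake and vitamin C-dependent hydroxylation described here are the transporters Slc23a1 and Slc23a2, the collagen prolyl 4-hydroxylase subunits P4ha1, P4ha2 and P4ha3, the lysyl hydroxylases Plod1, Plod2 and Plod3, and the HIF prolyl hydroxylases Egln1 and Egln3. They were chosen by name for their biochemical role, with earlier results of these data known, and all 10 were present among the 13682 genes of the FPKM table, the 22173 genes of the stage counts and the 32285 genes of the 10x counts. The study induced gonadal somatic cell-like cells (GSCLCs) from female embryonic stem cells (ESCs) of C57BL/6 mice with vitamin C (Vc) and AM580, a retinoic acid receptor alpha agonist, and the pair together is called V580. ESC-derived cells without either compound (Con), with Vc, with AM580 or with V580 were sequenced at 24 h and 48 h, with 2 libraries in each of the 8 groups. V580 cells were sequenced at days 4, 6, 8 and 10 (V580_D4 to V580_D10), with 3 libraries each, beside 3 libraries of cells from E12.5 female gonads (E12.5_GC). Gonadal somatic cells (GSCs) came from fetal female gonads of E12.5, E13.5 or E16.5 or from ovaries of mice aged 6 weeks (P6w) and had 2 libraries each, and V580 cells of day 6 made 1 10x sample.

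Vitamin C keeps the iron of a family of dioxygenases in its reduced form, so these enzymes depend on it while they hydroxylate proline, lysine and other substrates. Cells take it up through the sodium-coupled transporters of the Slc23a family. Prolyl 4-hydroxylation makes the collagen triple helix stable and lysyl hydroxylation prepares collagen for cross-linking, whereas hydroxylation of HIF alpha by the Egln enzymes marks it for degradation. P4ha1, P4ha2, Plod2, Egln1 and Egln3 are also known as genes that HIF can induce.

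The 31 libraries of the FPKM table held about 16400000 to 28300000 fragments each, as recovered from the FPKM steps, and the stage libraries held 12694769 to 22259044 counts. The ESCs had been kept on mouse embryonic fibroblast feeders, which were removed by their adherence before seeding, and GSCs were the cells left after magnetic removal of SSEA1-positive germ cells. The libraries at 24 h and 48 h still held pluripotency transcripts: 6 such genes summed to 832 to 899 FPKM in Con at 24 h and 240.99 to 246 FPKM in V580 at 48 h. The sum of 9 gonadal somatic genes was 54.9 to 57.9 FPKM at V580_D4, 147 to 151 FPKM at V580_D10 and 582 to 663 FPKM in E12.5_GC, with Nr5a1 and Lhx9 near 0 in the ESC-derived groups, so the cells are named here by their treatment and day. The sources do not say whether the libraries of a group were separate cultures or animals, so p-values measure only the spread between these libraries. In bulk libraries, fewer cells of a type and less RNA per cell cannot be told apart.

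HIF binds DNA at a short core, read here as ACGTG or GCGTG on either strand, and the 250 bases upstream of a gene's start are shown for 4 members that differ in their response to Vc and in the number of such cores. P4ha1 and Egln3 had the largest falls with Vc among the 10 genes, whereas Plod1 and Plod3 passed the test in no Vc comparison. The choice was made after those values were seen. The sequences are those of RefSeq on GRCm38.p6, 5′ to 3′ on the strand of the gene, with the core in capitals wherever it occurs on either strand, at chr10:59323046-59323295 (+) for P4ha1, chr12:54203875-54204124 (−) for Egln3, chr4:147936777-147937026 (−) for Plod1 and chr5:136986769-136987018 (+) for Plod3.
P4ha1: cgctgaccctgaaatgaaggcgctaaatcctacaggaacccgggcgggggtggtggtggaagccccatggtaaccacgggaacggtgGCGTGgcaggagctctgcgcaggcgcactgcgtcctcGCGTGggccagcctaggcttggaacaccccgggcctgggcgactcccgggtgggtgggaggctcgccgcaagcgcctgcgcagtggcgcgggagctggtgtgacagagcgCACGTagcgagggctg
Egln3: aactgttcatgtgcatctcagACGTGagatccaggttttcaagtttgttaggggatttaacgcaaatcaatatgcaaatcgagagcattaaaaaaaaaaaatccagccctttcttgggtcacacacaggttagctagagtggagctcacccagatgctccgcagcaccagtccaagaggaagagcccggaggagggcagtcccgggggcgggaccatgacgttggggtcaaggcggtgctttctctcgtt
Plod1: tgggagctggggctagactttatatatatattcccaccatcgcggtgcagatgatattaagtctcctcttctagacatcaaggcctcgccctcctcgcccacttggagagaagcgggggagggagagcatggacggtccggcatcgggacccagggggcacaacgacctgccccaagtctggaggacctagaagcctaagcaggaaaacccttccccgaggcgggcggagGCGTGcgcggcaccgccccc
Plod3: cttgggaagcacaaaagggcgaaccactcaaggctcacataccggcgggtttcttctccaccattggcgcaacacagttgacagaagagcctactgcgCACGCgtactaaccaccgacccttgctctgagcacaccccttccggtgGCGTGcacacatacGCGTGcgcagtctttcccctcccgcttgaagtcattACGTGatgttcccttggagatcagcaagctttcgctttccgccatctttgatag
The windows held 3 matches for P4ha1, 1 for Egln3, 1 for Plod1 and 4 for Plod3. These 4 genes were picked by response to Vc and number of matches, so they cannot show whether matches follow the response. That relation was not tested. Of the 8 members with a RefSeq promoter entry, 7 held at least 1 match, with P4ha3 the exception, against 38.6% of all 32851 promoter windows of the same length. Slc23a1 and Plod2 had no entry. The GC content of the 8 windows ran from 50.8% to 86.0%, and the share over all windows was not matched for GC. In the gene lists used below, 5 of 5 germ cell markers with an entry, 6 of 7 collagen partners and 11 of 14 HIF targets held a match. It was 0 of 5 for the fibroblast markers and 0 of 5 for the gonadal somatic genes. A match describes these letters and does not show binding.

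The comparison of Vc with Con addressed what vitamin C alone changed in the differentiating ESCs. At 24 h, 3 of the 10 genes passed the test (limma on log2(FPKM + 1), Benjamini-Hochberg adjusted p below 0.05), against 13.6% of the 10644 genes tested, with Slc23a1 higher and P4ha1 and Egln3 lower. At 48 h, 7 of the 10 passed, against 12.4% of all genes: Slc23a1 rose, and Slc23a2, P4ha1, P4ha2, Plod2, Egln1 and Egln3 fell. The median log2 fold change of the 10 genes was -0.10 at 24 h and -0.28 at 48 h. The median log2 fold change of all genes tested was within 0.1 of 0 in every comparison, and every fold change of FPKM values is on the log2(FPKM + 1) scale, which understates the change of genes with a low FPKM.

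**Figure D1:**
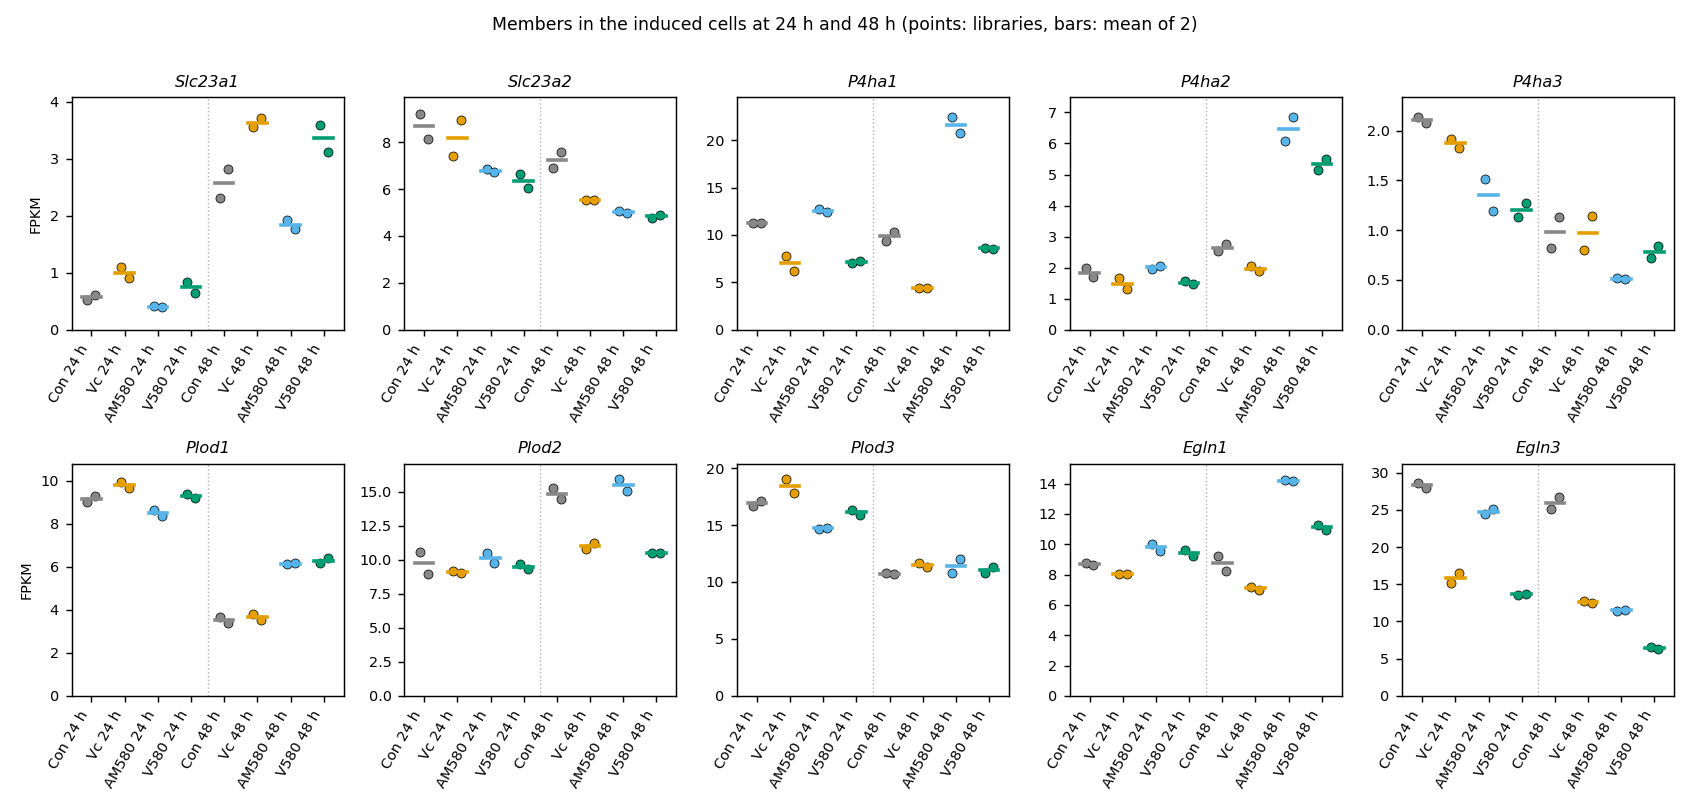
FPKM (y axis, linear) of the 10 genes in each library of the 4 treatments at 24 h and 48 h (x axis); points are libraries and bars are means of 2. P4ha1 and Egln3 lay lower in Vc than in Con at both times, and Slc23a1 lay higher.

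Among the transporters, Slc23a1, a sodium-coupled transporter best known from absorptive epithelia, was low throughout. Its libraries read 0.518 and 0.609 FPKM in Con and 1.09 and 0.902 FPKM in Vc at 24 h, which rest on 33 to 37 and 48 to 64 fragments. At 48 h it read 2.31 and 2.82 FPKM in Con and 3.55 and 3.71 FPKM in Vc. Genes tested had at least 1 FPKM in at least 2 libraries. Of all libraries at 24 h, only Vc replicate 1 reached 1 FPKM, so Slc23a1 was tested there through its libraries at 48 h. With libraries of 24 h only, Slc23a1 was not tested. The groups did not overlap at either time, and its mean FPKM was 76.7% higher with Vc at 24 h and 41.6% higher at 48 h (log2 fold change 0.35 ± 0.09 SE, adjusted p = 0.014, and 0.38, adjusted p = 0.0094). The call at 24 h was lost without Con replicate 1 (adjusted p = 0.093) or Vc replicate 1 (adjusted p = 0.086), and the call at 48 h without Con replicate 1 (adjusted p = 0.12) or Vc replicate 2 (adjusted p = 0.078). Slc23a2, the more widely expressed transporter, read 9.22 and 8.14 FPKM in Con and 7.4 and 8.93 FPKM in Vc at 24 h, where the groups overlapped, and 6.9 and 7.56 against 5.55 and 5.51 FPKM at 48 h, where they did not. It fell at 48 h by 0.33 on the log2 scale (adjusted p = 0.012), a call lost without Con replicate 2 or without either Vc library (adjusted p between 0.06 and 0.11).

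P4ha1 encodes the main catalytic subunit of collagen prolyl 4-hydroxylase. It read 11.3 and 11.3 FPKM in Con and 7.81 and 6.24 FPKM in Vc at 24 h, and 9.35 and 10.4 FPKM in Con and 4.37 and 4.35 FPKM in Vc at 48 h. The Vc libraries lay below both Con libraries at each time, and the mean fell by 37.7% at 24 h and fell by 55.8% at 48 h. The log2 fold change was -0.62 ± 0.08 at 24 h (adjusted p = 0.00013) and -1.02 ± 0.08 at 48 h (95% interval -1.18 to -0.86, adjusted p = 1.3e-06). Ranked from the largest fall among 10644 genes, P4ha1 stood at 25 at 24 h and at 5 at 48 h, and it was 1 of only 5 genes in all (0.0470%) that were called with a change of at least 2-fold at 48 h. P4ha2, a second catalytic subunit, read 1.97 and 1.69 FPKM in Con and 1.66 and 1.31 FPKM in Vc at 24 h, and 2.53 and 2.76 against 2.06 and 1.88 FPKM at 48 h. Its fall at 48 h (log2 fold change -0.30, adjusted p = 0.028) was lost without any 1 of the 4 libraries (adjusted p between 0.065 and 0.19). P4ha3, the least expressed of the 3 subunits at 48 h, read 0.818 and 1.14 FPKM in Con and 0.798 and 1.14 FPKM in Vc, and its difference had a 95% interval of -0.21 to 0.20 on the log2 scale.

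The lysyl hydroxylases did not move together. Plod2, which hydroxylates the telopeptides of fibrillar collagen, read 10.6 and 8.98 FPKM in Con and 9.19 and 9.01 FPKM in Vc at 24 h, where the groups overlapped. At 48 h it read 15.3 and 14.5 against 10.8 and 11.2 FPKM, without overlap, and fell by 0.40 on the log2 scale (SE 0.06, adjusted p = 0.00092, the mean fell by 25.8%). Plod1, which hydroxylates helical lysines, read 3.67 and 3.37 FPKM in Con and 3.79 and 3.53 FPKM in Vc at 48 h, with a log2 difference of 0.04 (95% interval -0.07 to 0.16). Plod3, which also has glycosyltransferase activity, had a log2 difference of 0.12 at 24 h (adjusted p = 0.17) and of 0.09 at 48 h (adjusted p = 0.30).

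Egln3, an oxygen-sensing prolyl hydroxylase of HIF alpha, had the highest FPKM of the 10 genes in Con at both times. It read 28.6 and 28 FPKM in Con and 15.1 and 16.495 FPKM in Vc at 24 h, and 25.1 and 26.7 against 12.7 and 12.493 FPKM at 48 h. The groups lay far apart relative to their spread, and the log2 fold change was -0.80 ± 0.05 at 24 h (adjusted p = 2.1e-07) and -0.98 ± 0.05 at 48 h (adjusted p = 1.7e-08), and the mean fell by 44.1% at 24 h and fell by 51.4% at 48 h. Egln3 ranked 10 at 24 h and 6 at 48 h from the largest fall among all genes. Egln1, the main HIF prolyl hydroxylase in most tissues, read 8.79 and 8.61 against 8.05 and 8.02 FPKM at 24 h (adjusted p = 0.23) and 9.21 and 8.26 against 7.17 and 7.01 FPKM at 48 h, where it fell by 0.27 on the log2 scale (adjusted p = 0.0041). Without Con replicate 1, the log2 fold change of Egln1 at 48 h was -0.19 (adjusted p = 0.065), whereas the calls of P4ha1, Plod2 and Egln3 at 48 h were kept when any 1 library was left out.

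With AM580 present in both groups, V580 was compared with AM580. Slc23a1 was again tested at 24 h only through its libraries at 48 h. At 24 h, 4 of the 10 genes passed the test (14.8% of all genes): Slc23a1 rose by 0.31 on the log2 scale (adjusted p = 0.024), and P4ha1 fell by 0.74 (adjusted p = 2.1e-05), Egln3 by 0.82 (adjusted p = 1.1e-07) and P4ha2 by 0.26 (adjusted p = 0.044). The call of P4ha2 at 24 h was lost without any 1 of the 4 libraries (adjusted p between 0.11 and 0.21) and that of Slc23a1 without either AM580 library or V580 replicate 1 (adjusted p between 0.10 and 0.20), whereas those of P4ha1 and Egln3 were kept. At 48 h, 5 passed (19.2% of all genes). P4ha1 read 22.5 and 20.7 FPKM in AM580 and 8.65 and 8.49 FPKM in V580, the 9th largest fall of all genes (log2 fold change -1.24, adjusted p = 6.9e-08). Egln3 read 11.4 and 11.6 against 6.61 and 6.35 FPKM (-0.74, adjusted p = 1.2e-07), and Slc23a1 read 1.92 and 1.76 against 3.6 and 3.11 FPKM (0.61, adjusted p = 0.00016). Plod2 read 15.9 and 15.1 against 10.5 and 10.5 FPKM (-0.52, adjusted p = 4.8e-05), and Egln1 read 14.2 and 14.2 against 11.3 and 11 FPKM (-0.33, adjusted p = 0.00052). In each of these 5 genes the V580 and AM580 libraries did not overlap at 48 h. The test on the same libraries had picked them, and the share of all genes without overlap was not counted.

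**Figure D2:**
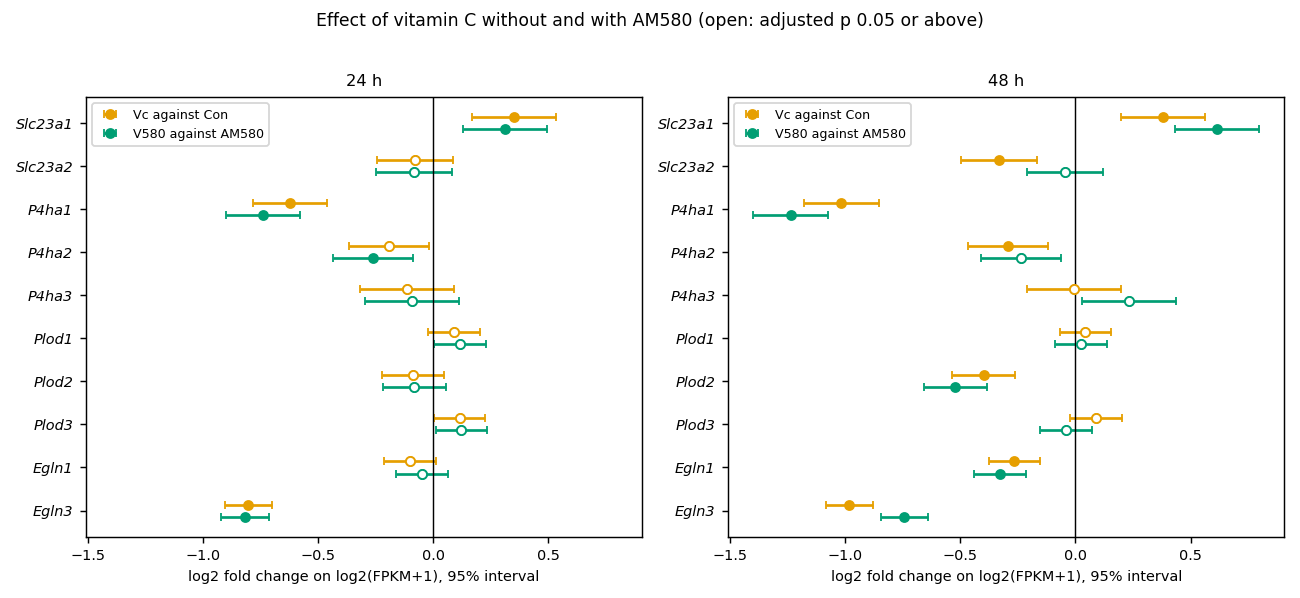
Log2 fold change on log2(FPKM + 1) (x axis) of the 10 genes (y axis) for Vc against Con and V580 against AM580 at 24 h (left) and 48 h (right); bars are 95% intervals, filled points passed the test and open points did not. P4ha1 and Egln3 lay left of 0 in all 4 comparisons and Slc23a1 lay right of 0.

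The difference between the Vc effect with AM580 and the Vc effect alone was tested as an interaction. No member passed at 24 h (0.0376% of all genes did) or at 48 h (3.61%) in limma. At 48 h, Egln3 had the difference nearest to the threshold, 0.24 (95% interval 0.10 to 0.39, adjusted p = 0.069), and P4ha1 had -0.22 (95% interval -0.45 to 0.01, adjusted p = 0.35). The change of the Vc effect between 24 h and 48 h passed for no member either (2.90% of all genes), with P4ha1 at -0.40 (95% interval -0.62 to -0.17, adjusted p = 0.065) and Plod2 at -0.31 (adjusted p = 0.086). At an unadjusted p below 0.05 the counts were 0, 2 and 5 of the 10 genes. Only the limma results are given for these interactions, although edgeR on recovered fragments was also run.

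AM580 alone was compared with the same Con libraries. At 24 h, 4 of the 10 genes passed, all lower than in Con (14.8% of all genes passed, 7.16% lower): Slc23a2, P4ha3, Plod3 and Egln3, with log2 fold changes between -0.41 and -0.18. The count without 1 library was 0 to 2: the calls of Plod3 and Egln3 were lost without any 1 of the 4 libraries, that of Slc23a2 without either AM580 library or Con replicate 1, and that of P4ha3 without AM580 replicate 2 or Con replicate 1 (adjusted p between 0.051 and 0.14). At 48 h, 8 of the 10 passed, 4 higher and 4 lower, against 57.0% of all genes. P4ha1 read 9.35 and 10.4 FPKM in Con and 22.5 and 20.7 FPKM in AM580 (log2 fold change 1.06, adjusted p = 2.5e-08), and P4ha2 read 2.53 and 2.76 against 6.09 and 6.85 FPKM (1.03, adjusted p = 7.4e-08). Plod1 (0.66) and Egln1 (0.64) also rose. Egln3 fell, from 25.1 and 26.7 to 11.4 and 11.6 FPKM (-1.10, adjusted p = 8.9e-11), so that the Egln genes moved in opposite directions. Slc23a2 (-0.45), Slc23a1 (-0.33) and P4ha3 (-0.38) fell, and the calls of Slc23a1 (adjusted p = 0.075) and P4ha3 (adjusted p = 0.058) were lost without Con replicate 2. The AM580 effect differed between 24 h and 48 h for 6 genes (35.0% of all genes): P4ha1, P4ha2, Plod1, Plod3, Egln1 and Egln3. In AM580 against Con at 48 h itself, Plod2 (0.05, adjusted p = 0.48) and Plod3 (0.08, adjusted p = 0.20) did not pass. The 8 extraembryonic endoderm marker genes all rose in the same comparison, and their summed FPKM was 20.6 to 21.9 in Con, 53.1 to 56.7 in AM580 and 34.1 to 38.1 in V580. Their part in these results was not tested, and between Vc and Con their sums were alike at 21.3 to 21.8 FPKM in Vc.

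V580 against Con compared both compounds together with neither, and it shares its Con libraries with the comparisons of Vc and AM580. At 24 h, 4 genes passed, all lower (29.0% of all genes passed, 15.5% lower): Egln3 (its mean fell by 51.9%, adjusted p = 1.9e-09), P4ha1 (-0.60), P4ha3 (-0.50) and Slc23a2 (-0.40). At 48 h, 7 passed (57.1% of all genes), and Egln3 had the widest difference of the 10, from 25.1 and 26.7 FPKM in Con to 6.61 and 6.35 FPKM in V580 (-1.85, adjusted p = 2.9e-13). P4ha2 (0.80), Plod1 (0.69), Egln1 (0.32) and Slc23a1 (0.29) rose, and Slc23a2 (-0.49) and Plod2 (-0.47) fell. The rise of Slc23a1 was lost without Con replicate 1 (adjusted p = 0.13) or V580 replicate 1 (adjusted p = 0.11). P4ha1, which was lower with Vc and higher with AM580, had a log2 difference of -0.18 (adjusted p = 0.054). The untreated cells themselves changed between 24 h and 48 h, where 9 of 10 passed (66.0% of all genes): Slc23a1 rose by 1.19 and Plod2 by 0.56 on the log2 scale, and Plod1 fell by 1.17 and Plod3 by 0.61. The sum of 10 fibroblast markers fell over the same interval from between 29.5 and 30 FPKM to between 11 and 11.5 FPKM, with 4 of 5 tested markers lower, and the part of remaining feeder cells in the changes of Plod1 and Plod3 was not tested.

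The other genes of these pathways were taken as lists. Of 16 HIF target genes, which include glycolytic enzymes and Bnip3, 2 rose and 9 fell with Vc at 24 h (median log2 fold change -0.24, 13.6% of all genes called), and 2 rose and 7 fell at 48 h (median -0.23, 12.4% of all genes called). At 48 h, Ddit4, an inhibitor of mTORC1 signalling, fell from 58.8 to 28 FPKM (-1.05, adjusted p = 5.2e-06), Bnip3, a mitophagy receptor, from 22.6 to 10.6 FPKM (-1.02, adjusted p = 1.5e-06) and Pgk1, a glycolytic kinase, from 436 to 226 FPKM (-0.94, adjusted p = 1.7e-08). Slc2a1, which carries glucose and oxidised vitamin C, fell from 106 to 68.9 FPKM (-0.62, adjusted p = 2.2e-07), while Car9 (0.31) and Pdk1 (0.27) rose. In V580 against AM580 at 48 h, none of the 16 rose and 10 fell (median -0.36, 19.2% of all genes called), led by Slc2a1 (-1.36), Ddit4 (-1.28), Bnip3 (-1.21) and Pgk1 (-1.03). The collagen genes did not show this: of 12 collagen chains, 4 rose and 1 fell with Vc at 48 h (median 0.02), with Col1a2 from 5.59 to 8.43 FPKM (0.52, adjusted p = 0.00032) and Col3a1 from 0.782 to 1.41 FPKM (0.43). Of 14 partners of collagen synthesis, 3 rose and 1 fell, with Serpinh1, the collagen chaperone, at 0.22 and P4hb, the beta subunit that P4ha1 needs, at -0.20. Of 11 other vitamin C-dependent hydroxylases tested, 2 rose and none fell, namely Phyh (0.33) and Hif1an (0.16). Among 9 genes of vitamin C handling, Ugdh (0.45) and Cyb5r3 (0.19) rose with Slc23a1, and Slc2a1 and Slc2a3 (-0.39) fell. The summed FPKM of 10 fibroblast markers was 29.5 to 30 in Con and 30.5 to 31.7 in Vc at 24 h, and 11 to 11.5 and 12.6 to 13 at 48 h. Other marker sums also differed: 7 macrophage markers summed to 45.2 to 46.6 FPKM in Con and 30.1 to 34.6 FPKM in Vc at 24 h and to 8.81 to 8.83 and 5.72 to 7.43 FPKM at 48 h, and Cd68, 1 of 2 that were tested, fell at both times. Germ cell markers summed to 44.4 to 44.5 and 56.6 to 57.3 FPKM at 24 h and to 35.9 to 38.1 and 37.3 to 38.7 FPKM at 48 h. Pluripotency genes summed to 832 to 899 and 782 to 845 FPKM at 24 h and to 498 to 509 and 420 to 429 FPKM at 48 h. Their part in the Vc results was not tested.

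Over the days of V580 induction, most of the collagen-modifying enzymes and both Egln genes rose. Between V580_D4 and V580_D6, 5 of the 9 genes tested passed (44.9% of all genes passed): P4ha1, P4ha3, Plod2 and Egln3 rose and Plod1 fell. The rise of P4ha3 was lost without V580_D4 replicate 1 or 2 or V580_D6 replicate 3 (adjusted p between 0.058 and 0.079). Between V580_D6 and V580_D8, 7 of the 9 genes tested rose and none fell (41.1% of all 11512 genes passed, 20.3% higher), and the same 7, namely P4ha1, P4ha2, Plod1, Plod2, Plod3, Egln1 and Egln3, rose again between V580_D8 and V580_D10 (34.5% passed, 19.5% higher). The median log2 fold change of the 9 genes was 0.50 and 0.58 in these steps, against -0.02 and 0.01 over all genes. Slc23a1 was below the filter of 1 FPKM in 3 libraries and was not tested: it read 0.219 to 0.287 FPKM at V580_D4, 0.618 to 0.695 FPKM at V580_D8 and 0.218 to 0.4 FPKM at V580_D10.

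**Figure D3:**
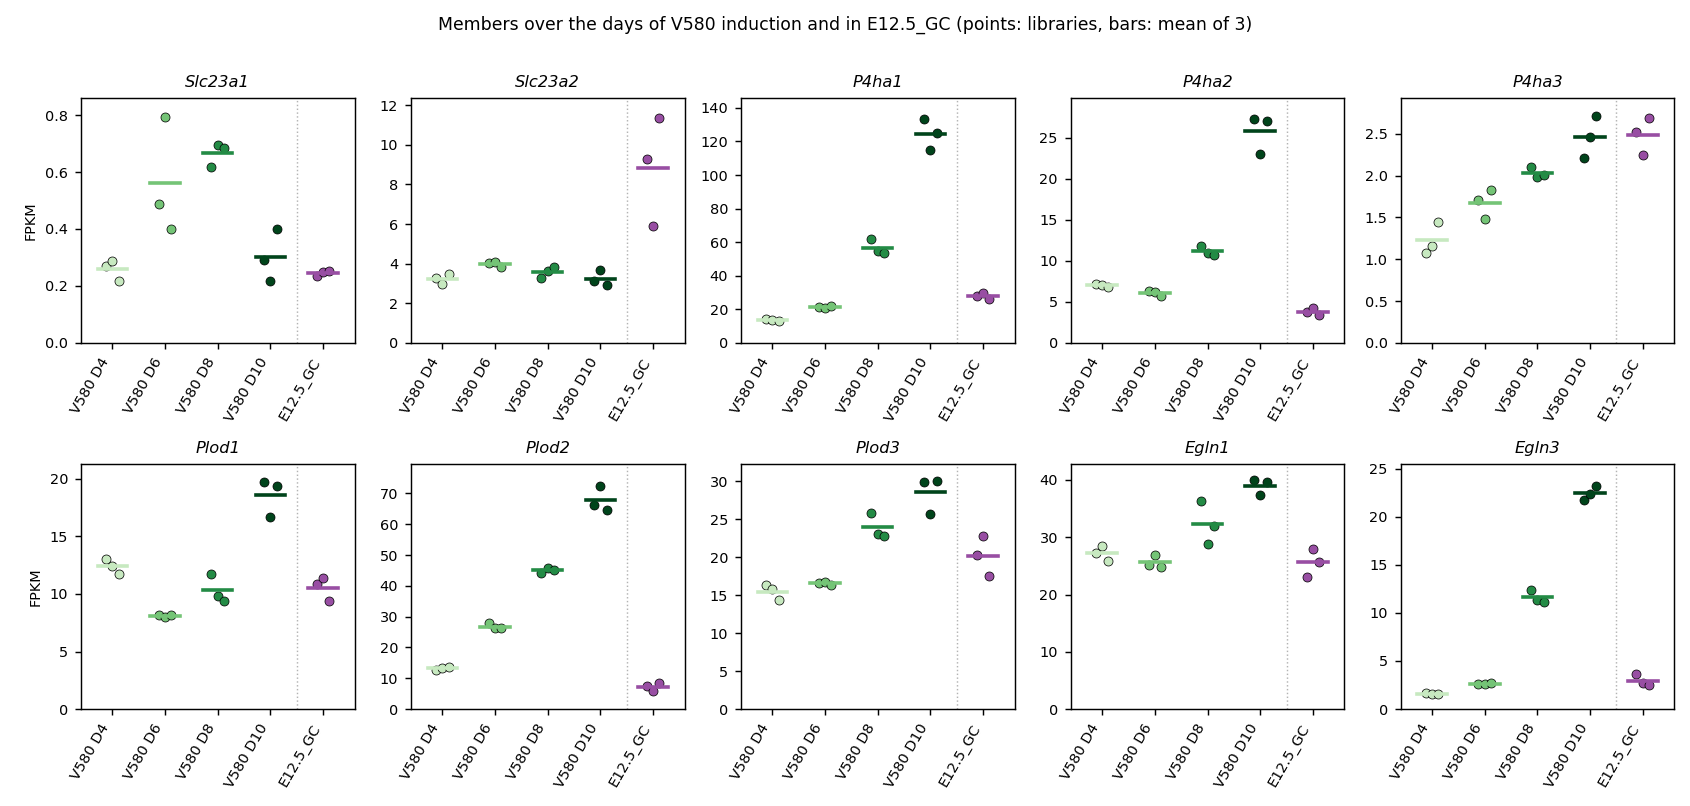
FPKM (y axis, linear) of the 10 genes in each library of V580_D4 to V580_D10 and of E12.5_GC (x axis); points are libraries and bars are means of 3. P4ha1, P4ha2, Plod2 and Egln3 reached their highest FPKM at V580_D10, above every E12.5_GC library, whereas Slc23a2 lay below E12.5_GC on every day.

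P4ha1 read 14, 13.4 and 13.4 FPKM at V580_D4, 21.6, 20.9 and 21.8 FPKM at V580_D6, 62.1, 54.8 and 53.6 FPKM at V580_D8 and 133, 115 and 125 FPKM at V580_D10. E12.5_GC read 28, 29.8 and 26.5 FPKM, so P4ha1 passed from below to above the gonadal level between V580_D6 and V580_D8. Its log2 fold changes from one day to the next were 0.62, 1.36 (adjusted p = 4e-09) and 1.12, and against E12.5_GC it was -0.99 at V580_D4 (adjusted p = 8e-09) and 2.11 at V580_D10 (adjusted p = 1.9e-12). Plod2 read 12.7, 13.3 and 13.6 FPKM at V580_D4, 28, 26.2 and 26.2 FPKM at V580_D6, 44.1, 45.8 and 45.2 FPKM at V580_D8, and 66.2, 72.5 and 64.5 FPKM at V580_D10. In E12.5_GC it read 7.42, 5.79 and 8.53 FPKM, below every V580 library, and at V580_D10 its mean was 9.35 times that of E12.5_GC (log2 fold change 3.07, adjusted p = 7.7e-13).

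Egln3 read 1.63, 1.53 and 1.55 FPKM at V580_D4, 2.59, 2.58 and 2.68 FPKM at V580_D6, 12.4, 11.3 and 11.1 FPKM at V580_D8 and 21.7, 22.3 and 23.2 FPKM at V580_D10. E12.5_GC read 3.66, 2.67 and 2.55 FPKM. The step from V580_D6 to V580_D8 was the 34th largest rise of all genes (log2 fold change 1.80, adjusted p = 1.9e-09), and at V580_D10 the mean was 7.57 times that of E12.5_GC (2.57, adjusted p = 1.8e-12). Egln1 was already at 25.8 to 28.5 FPKM at V580_D4, beside 23.1 to 28 FPKM in E12.5_GC, and reached 37.3 to 40 FPKM at V580_D10 (0.59 against E12.5_GC). P4ha2 read 6.87 to 7.2 FPKM at V580_D4 and 23 to 27.2 FPKM at V580_D10, against 3.35 to 4.22 FPKM in E12.5_GC (0.76 and 2.49). Its step between V580_D4 and V580_D6 did not pass the test.

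Plod1 fell by 0.56 from V580_D4 (11.7 to 13 FPKM) to V580_D6 (8 to 8.14 FPKM) and then rose to 16.6 to 19.7 FPKM at V580_D10. Its rise from V580_D6 to V580_D8 was lost without V580_D8 replicate 1 (0.22, adjusted p = 0.066 in limma). Plod3 read 14.4 to 16.3 FPKM at V580_D4 and 25.7 to 30 FPKM at V580_D10, and its last step was small (0.24, adjusted p = 0.048) with overlapping libraries. The last step of Plod3 was lost without V580_D10 replicate 1 or 3 or V580_D8 replicate 2 or 3 (adjusted p between 0.14 and 0.16), and also with edgeR on recovered fragments, median centring, no filter or a pseudocount of 0.1 (adjusted p between 0.051 and 0.073). Without the same libraries, so was that of Egln1 (adjusted p between 0.067 and 0.13). P4ha3 read 1.08 to 1.45 FPKM at V580_D4 and 2.21 to 2.71 FPKM at V580_D10, against 2.24 to 2.69 FPKM in E12.5_GC, from which it did not pass at V580_D10 (-0.01, adjusted p = 0.90). Slc23a2 was 5.88 to 11.4 FPKM in E12.5_GC and no more than 4.08 FPKM in any library of the V580 days, lower on each day (log2 fold changes between -1.18 and -0.94).

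Against E12.5_GC, 8 of 9 genes passed at V580_D4 (3 higher and 5 lower, 71.6% of all genes), 7 at V580_D6 (2 and 5, 67.0%), 8 at V580_D8 (6 and 2, 63.2%) and 8 at V580_D10 (7 and 1, 69.5%). The call of Plod1 at V580_D4 was lost with edgeR on recovered fragments, with median centring and without some single libraries (adjusted p between 0.069 and 0.14). That of P4ha3 at V580_D8 was lost with edgeR, with a pseudocount of 0.1 and without some single libraries (adjusted p between 0.061 and 0.11). Plod3 was lost at V580_D6 without E12.5_GC replicate 2, and at V580_D8 without E12.5_GC replicate 1 or 3 or V580_D8 replicate 1. All comparisons with E12.5_GC share its libraries, in which the sum of 3 erythroid genes ranged from 1038 to 4435 FPKM. The part of that range in the gonadal levels was not tested. The order of mean FPKM in E12.5_GC was P4ha1, Egln1, Plod3, Plod1, Slc23a2, Plod2, P4ha2, Egln3, P4ha3 and Slc23a1, and at V580_D10 it was P4ha1, Plod2, Egln1, Plod3, P4ha2, Egln3, Plod1, Slc23a2, P4ha3 and Slc23a1. In E12.5_GC the libraries of P4ha1 and Egln1 overlapped, as did those of Slc23a2 with both Plod1 and Plod2 and those of Egln3 with both P4ha2 and P4ha3. At V580_D10 the libraries of P4ha2 overlapped with those of both Plod3 and Egln3.

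Other genes of collagen and HIF biology rose over the same days, where 41.1% of all genes were called in the first step named and 34.5% in the second. Of 12 collagen chains, 10 rose and 2 fell between V580_D6 and V580_D8 (median 1.53, with Col6a1 at 2.99), and 9 rose and 1 fell between V580_D8 and V580_D10 (median 0.85). Of 14 collagen partners, 9 rose and none fell in each step, led by Lox, the lysyl oxidase that acts on hydroxylysine (1.598 and 1.98). Of 16 HIF targets, 11 rose and none fell in the first step (median 0.54, Bnip3 at 1.53 and Ldha at 1.21), and 9 rose and 1 fell in the second (median 0.34, Adm at 1.33). At V580_D10, Slc2a1 read 123 ± 11 FPKM against 27.9 ± 3.4 FPKM in E12.5_GC (SD, n = 3, adjusted p = 7.8e-11 in limma) and Slc2a3 read 48.5 against 3.04 FPKM (log2 fold change 3.62). The summed FPKM of 10 fibroblast markers ran from 16.2 to 17.7 at V580_D4 over 40.7 to 42.4 at V580_D6 and 97.3 to 116 at V580_D8 to 186 to 203 at V580_D10, with S100a4 at 0 from V580_D6 on, and was 52.5 to 61.2 in E12.5_GC. The sum of 8 extraembryonic endoderm markers was 130 to 145 at V580_D4, 215 to 240 at V580_D6, 262 to 292 at V580_D8 and 290 to 312 at V580_D10. It was 107 to 143 in E12.5_GC. The sum of 7 endothelial markers ran from 10.2 to 10.7 at V580_D4 over 22.9 to 24.6 at V580_D6 and 51.2 to 53.9 at V580_D8 to 59.3 to 59.6 at V580_D10, and was 67.9 to 101 in E12.5_GC. All 3 sums were higher at V580_D10 than at V580_D4. The endothelial and extraembryonic endoderm sums rose less after V580_D8 than between V580_D4 and V580_D8. The part of the 3 sums in the rise of the enzymes was not tested.

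Whether the 24 h and 48 h libraries were run together with the day libraries is not given. Time and a difference between the sets therefore cannot be told apart in V580_D4 against V580_48h. All 10 genes passed there (74.1% of all genes), with Egln3 at a log2 fold change of -1.54, Slc23a1 at -1.79, and Egln1 at 1.22.

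Likeness over the 13 group means of the FPKM table was taken as Pearson's r of log2 values. It is a description over means that share libraries and may share runs. P4ha1 went most closely with P4ha2 (r = 0.88), Egln1 (0.87) and Plod2 (0.81) among the members, whereas Egln3 had r between -0.50 and 0.38 with the other 9. Over 9044 other genes, the genes most like P4ha1 were Ccdc186 (0.956), Surf4 (0.947) and Snai1 (0.944), and those most like Plod2 were Pdpn (0.9748), Serpine2 (0.964) and Cited1 (0.962). For Plod3 they were Col1a2 (0.978), Cd63 (0.977) and Anxa5 (0.976), for Egln1 Glg1 (0.989) and for Egln3 Csrp2 (0.941).

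In the GSCs of the 4 stages, P4ha1, P4ha2 and the 3 Plod genes were highest at 6 weeks, and P4ha3 and both Egln genes had their lowest means there. Against E12.5, 7 of the 10 genes passed at P6w (edgeR quasi-likelihood test, Benjamini-Hochberg adjusted p below 0.05), 5 higher and 2 lower, where 52.9% of all 16398 genes passed. Their median log2 fold change was 0.61, against -0.04 over all genes. Values are counts per 1000000 after TMM scaling (CPM). Plod2 read 15.5 and 18 CPM at E12.5, 9.09 and 5.93 CPM at E13.5, 26.7 and 24.1 CPM at E16.5 and 195 and 214 CPM at P6w. It had no overlap between any of the 4 stages, with a log2 fold change of -1.15 ± 0.18 at E13.5 (adjusted p = 0.00015), 0.60 at E16.5 (adjusted p = 0.011) and 3.61 ± 0.18 at P6w (adjusted p = 2.2e-10), all against E12.5. The call at E16.5 was lost without E12.5 replicate 2 (0.50, adjusted p = 0.12).

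**Figure D4:**
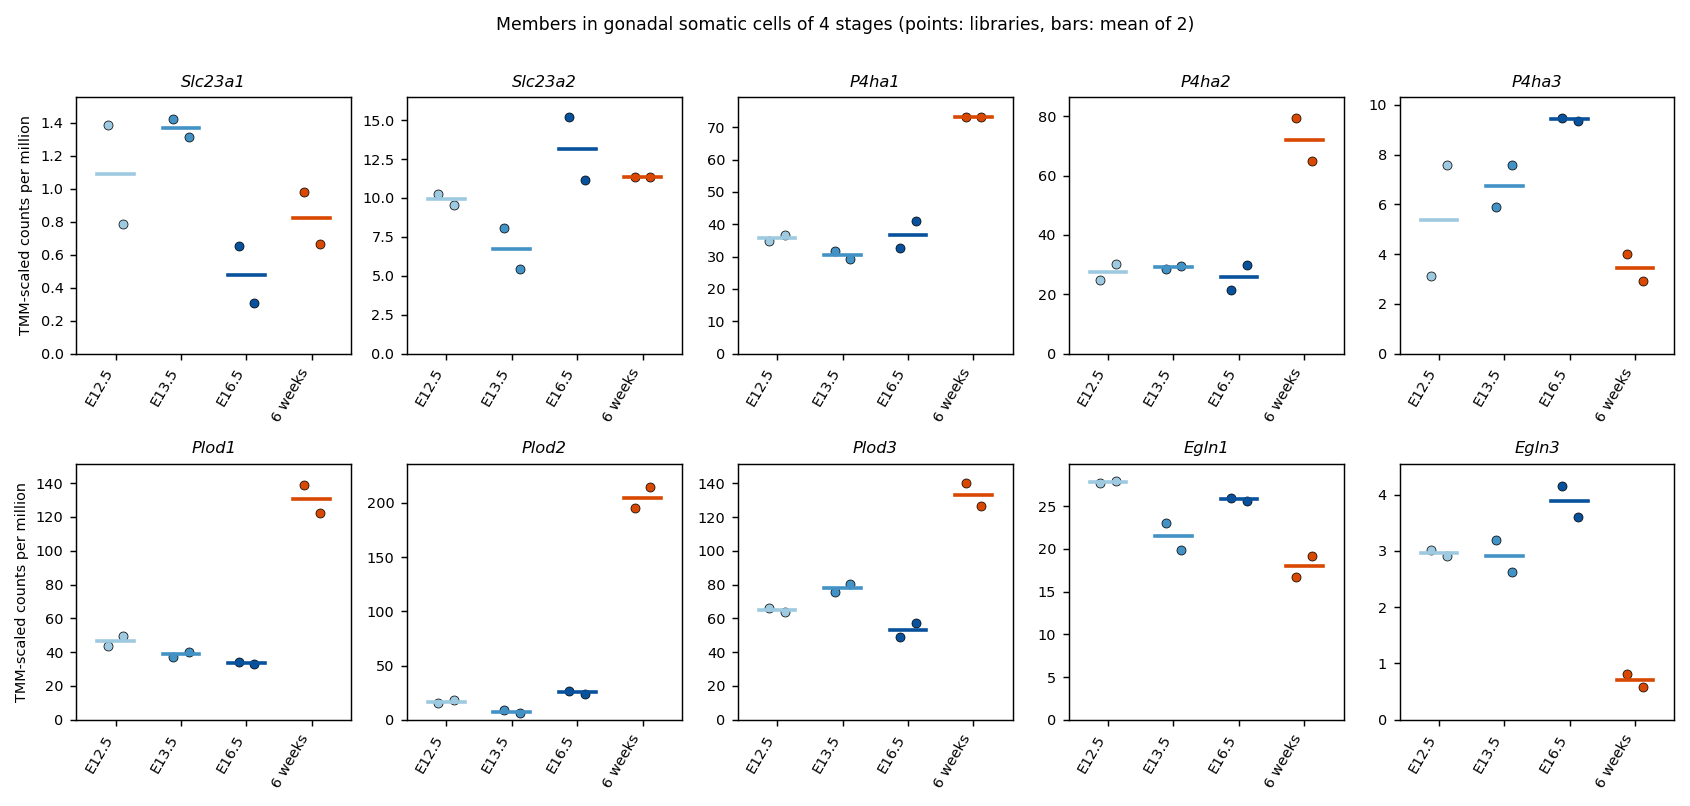
TMM-scaled CPM (y axis, linear) of the 10 genes in each library of GSCs by age (x axis, E12.5 to 6 weeks); points are libraries and bars are means of 2. P4ha1, P4ha2, Plod1, Plod2 and Plod3 lay highest at 6 weeks and Egln3 lay lowest there.

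Plod1 read 43.7 and 49.7 CPM at E12.5 and 139 and 122 CPM at P6w (log2 fold change 1.49, adjusted p = 2e-07), and Plod3 read 66.4 and 63.8 against 140 and 126 CPM (1.03, adjusted p = 6e-06). P4ha1 read 34.8 and 36.7 against 73.3 and 73.2 CPM (1.03, adjusted p = 2.6e-05), and P4ha2 read 24.9 and 30.2 against 79.4 and 64.9 CPM (1.39, adjusted p = 9.2e-06). Egln1 read 27.7 and 28 CPM at E12.5 and 16.7 and 19.1 CPM at P6w (-0.63, adjusted p = 0.004). Egln3 read 3.01 and 2.92 CPM at E12.5, from 61 and 63 counts, and 0.817 and 0.583 CPM at P6w, from 10 and 7 counts (-2.07 ± 0.41, adjusted p = 0.00063). In each of these 6 genes the libraries of both stages stood apart. They had been picked by the test on the same libraries, and the share of all genes standing apart was not counted. Per kilobase of exon, the order at P6w was Plod2 (38 CPM), Plod3 (29.4), Plod1 (19.3), P4ha1 (17.8), P4ha2 (11.6) and Egln1 (4.99), and at E12.5 it began with Plod3 (14.4), P4ha1 (8.7) and Egln1 (7.75) and had Plod2 at 3.11.

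Between the fetal stages few members passed. Plod2 alone passed at E13.5 against E12.5 (45.9% of all genes passed), and Plod1 (-0.47, adjusted p = 0.012) and Plod2 passed at E16.5 against E12.5 (37.6%). The call of Plod1 was lost without E12.5 replicate 1 (-0.38, adjusted p = 0.14). From E13.5 to E16.5, 3 passed (54.1%): Plod2 rose by 1.75 (adjusted p = 2.1e-06), Slc23a2 rose by 0.96 (adjusted p = 0.0029) and Plod3 fell by 0.55 (adjusted p = 0.002). Slc23a2 no longer passed with a term for gene length (0.55, adjusted p = 0.050), and log2 fold changes went with gene length over all genes in that comparison (Spearman correlation 0.335, and -0.494 for E13.5 against E12.5). P4ha3 read 7.6 CPM in replicate 1 and 3.11 CPM in replicate 2 at E12.5, from 164 and 63 counts, and without E12.5 replicate 1 it passed at E13.5 (1.10, adjusted p = 0.028) and at E16.5 (1.59, adjusted p = 0.0043), whereas without E12.5 replicate 2 it passed at P6w (-1.14, adjusted p = 0.011). Slc23a1 stayed between 5 and 28 counts in every library and passed in no stage comparison with TMM scaling, whereas with DESeq2 size factors it passed from E13.5 to E16.5 (-1.48, adjusted p = 0.048). Marker sums also differed between the fetal stages. Erythroid genes summed to 14310 to 15694 CPM at E12.5, 32482 to 35117 CPM at E13.5 and 10730 to 15260 CPM at E16.5. Germ cell markers summed to 8.57 to 9.34, 23.8 to 26.4 and 122 to 156 CPM. Liver genes summed to 23.4 to 24.7, 244 to 266 and 31.1 to 31.7 CPM. Gonadal somatic genes summed to 2319 to 2333, 2162 to 2203 and 1576 to 1694 CPM. The part of these sums in the changes between stages was not tested.

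At P6w against E16.5, 8 of 10 passed (56.1%), 5 higher and 3 lower. Plod2 rose by 3.01 and Plod1 by 1.96 on the log2 scale, and Egln3 fell by 2.46 (adjusted p = 0.00011), P4ha3 by 1.44 (adjusted p = 0.0032) and Egln1 by 0.52 (adjusted p = 0.012), the last lost without P6w replicate 1 (-0.45, adjusted p = 0.098). The labels of both P6w libraries and of E16.5 replicate 2 carry the tag L1 and those of the other stage libraries the tag L5, so what the tag stands for and the stage cannot be told apart between P6w and E12.5. Within the tag L1, Plod2 read 24.1 CPM at E16.5 and 195 and 214 CPM at P6w, and Plod1 read 33 CPM against 139 and 122 CPM. P4ha1 (40.9 CPM), P4ha2 (29.8 CPM) and Plod3 (57.3 CPM) of E16.5 replicate 2 likewise lay below both P6w libraries.

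The substrates did not rise with the enzymes at P6w: none of the 12 collagen chains rose and 10 fell against E12.5 (median -1.50, where 52.9% of all genes were called), with Col2a1 at -5.53 and Col18a1 at -3.48, while 9 of 14 collagen partners rose and 1 fell (median 0.75), P4hb from 499 to 1135 CPM (1.18, adjusted p = 1.4e-06). Of 8 genes of the HIF system, 2 rose and 2 fell: Epas1, which encodes HIF-2 alpha, rose from 21 to 121 CPM (2.52, adjusted p = 2e-09), Arnt2 rose by 1.63, and Hif3a and Arnt fell. Of 16 HIF targets, 4 rose and 6 fell (median 0.08). Gulo, which encodes the last enzyme of vitamin C synthesis in the mouse, rose from 1.5 to 23.4 CPM (3.95, adjusted p = 1.3e-08). Macrophage markers summed to 66.3 to 70.2 CPM at E12.5 and 244 to 252 CPM at P6w, fibroblast markers to 173 and to between 98.4 and 107 CPM, and erythroid genes to between 14310 and 15694 and between 264 and 295 CPM. Their part in the levels at P6w was not tested.

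In the 10x sample of V580 day 6, 15315 cells with a median of 9281 UMIs were grouped into 11 clusters. This is 1 sample, so no test was made, and intervals are exact 95% Poisson intervals that cover counting error only. Over all cells, Plod2 (208 UMIs per 1000000 UMIs, CPM), P4ha1 (201) and Egln1 (147) were the most abundant of the 10 transcripts, followed by P4ha2 (60.1), Plod3 (36.1), Plod1 (21.7) and Egln3 (20.3). P4ha3 (2.90), Slc23a2 (4.27) and Slc23a1 (2.85, from 464 UMIs) were near the floor. The order of counts between genes is not corrected for length.

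**Figure D5:**
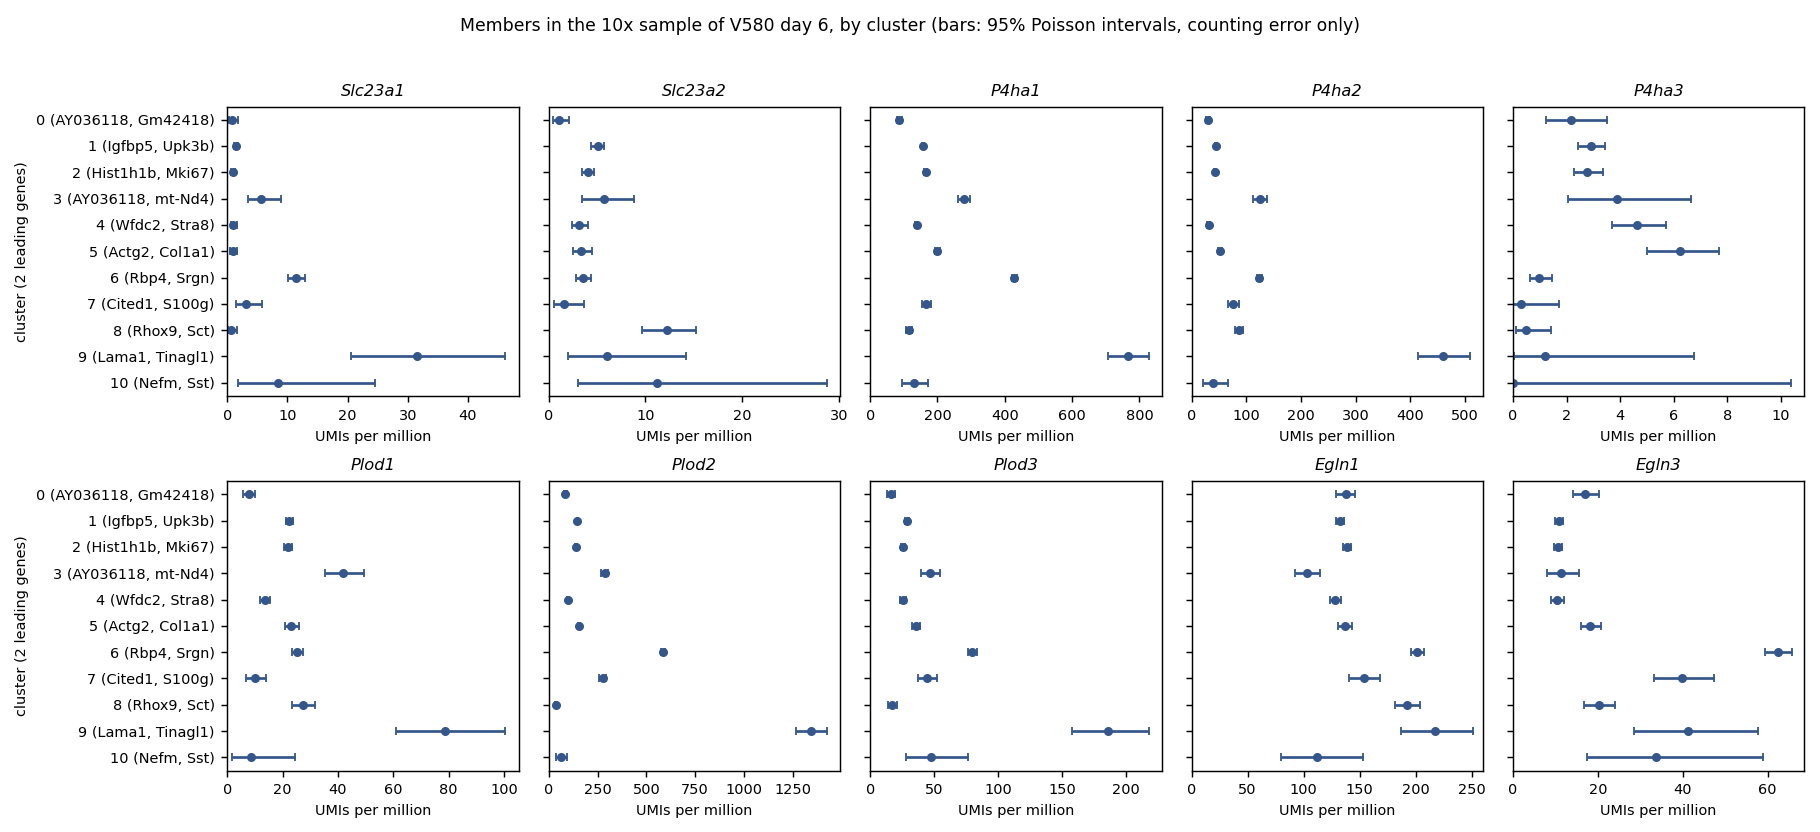
UMIs per 1000000 UMIs (x axis, linear, own scale per gene) of the 10 genes in each of the 11 clusters of the 10x sample (y axis, with the 2 leading genes); bars are exact 95% Poisson intervals. Cluster 9 lay highest for 7 of the 10 genes, and cluster 6 lay next or highest for P4ha1, Plod2, Plod3 and Egln3.

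Cluster 9 (268 cells, 1.75% of cells, led by Lama1, Tinagl1 and Col27a1) and cluster 6 (952 cells, led by Rbp4, Srgn and S100g) both carried extraembryonic endoderm markers, among them Sox17, Lama1, Cubn and Dab2. P4ha1 was at 766 CPM in cluster 9 (708 to 829) and 429 in cluster 6 (420 to 437), against 86.3 in cluster 0, the lowest. Plod2 was at 1341 in cluster 9 (1263 to 1423) and 587 in cluster 6 (577 to 597), against 35.9 in cluster 8. P4ha2 (460), Plod3 (186), Plod1 (78.8), Egln1 (217) and Slc23a1 (31.5, interval 20.6 to 46.2, from 26 UMIs) were also highest in cluster 9, whose intervals lay above those of every other cluster for P4ha1, P4ha2, Plod1, Plod2 and Plod3. Egln3 was highest in cluster 6 (62.5, interval 59.3 to 65.8), P4ha3 in cluster 5 (6.23, interval 4.99 to 7.68), which was led by Actg2 and Col1a1, and Slc23a2 in cluster 8 (12.2, interval 9.60 to 15.3), which was led by Rhox9 and Sct.

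The basement membrane collagen Col4a1 was at 7108 CPM in cluster 9 and 3545 in cluster 6 against 263 in cluster 5, whereas the fibrillar collagen Col1a1 was at 783 in cluster 5 against 24.3 in cluster 9 and 23 in cluster 6. Serpinh1 was at 2115 in cluster 9, 1358 in cluster 6 and 872 in cluster 5. P4ha2 and Plod2, like collagen genes that lead clusters, were among the genes used for clustering, so their levels describe the clusters. The cells of clusters 0, 3, 7 and 9 had a median of 1454 to 2356.5 UMIs, well under that of the sample, and cluster 9 had a median mitochondrial share of 5.37%. With at most 10% mitochondrial UMIs per cell, cluster 9 was not separate, and the highest cluster levels were 445 for P4ha1, 613 for Plod2, 82.8 for Plod3 and 27.1 for Plod1 in a cluster led by Srgn and Rbp4, and 140 for P4ha2 in another led by Gm26917 and AY036118. With at least 1000 genes per cell they were 445 for P4ha1, 618 for Plod2, 137 for P4ha2 and 83.9 for Plod3 in a cluster led by Srgn and Lama1, and 41.5 for Plod1 in one led by AY036118 and mitochondrial genes. With the 10 genes left out of the clustering, chosen after the data were seen, the highest levels were 777 for P4ha1 and 1350 for Plod2. A Leiden resolution of 1.0 gave 17 clusters, with 852 for P4ha1 and 1452 for Plod2 in a cluster led by Lama1. P4ha3 was then highest at 21.5, in a cluster led by Spp1 and Mgp. The highest level of Slc23a1 was 29.9 at that resolution and 11.9 with at least 1000 genes per cell.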

How the data were processed

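Expression was measured by bulk RNA-seq in 39 libraries used here and by 10x single-cell RNA-seq in 1 sample. For the treatments, the V580 days and E12.5_GC, the values deposited by the authors are FPKM by gene symbol, without counts. For the GSC stages they deposited whole-number counts, and the submitters' processing notes name Trim Galore, HISAT2, featureCounts and RSEM with mm10, without a role for each table. The deposited UMI counts came from Cell Ranger per the paper's methods. A further table was not used, because its 10 columns of values could not be matched to samples, and other samples of the series were not analysed here.

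The 10 genes and the gene lists were chosen with earlier results of these data known. All 10 were named in every comparison, and up to 4 genes per list were named by size among those called. The limma-trend method (limma 3.58.1, R 4.3.3) was applied to log2(FPKM + 1). Genes tested had at least 1 FPKM in at least 2 libraries (24 h and 48 h, and V580_D4 against V580_48h) or 3 libraries (days). The 24 h and 48 h set and the day set had 1 model each, and V580_D4 against V580_48h had 1 model of all 31 libraries. Stage counts passing filterByExpr received TMM factors, and the quasi-likelihood test was that of edgeR 4.0.16. Benjamini-Hochberg adjustment ran over all genes tested, with a threshold of 0.05. On simulated data with 200 changed genes, limma recovered 100% of 2-fold changes for Vc_24h against Con_24h (10172 genes), and edgeR recovered 83% for E13.5 against E12.5 (15922 genes).

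FPKM values of 12975 of 13682 genes (94.8%), among them the 10 members, were whole multiples of 1 fragment within 0.05, and edgeR on those fragments was run as an added alternative. In the 10x sample, 15315 of 15412 cells had 200 genes or more and no more than 40% mitochondrial UMIs and were kept and clustered with scanpy 1.11.5 (2000 variable genes, 20 components, Leiden resolution 0.5), with no doublet step. The deviations of same-numbered libraries had a median correlation of 0.016 in the treatments, 0.0282 in the days and 0.00624 in the stages. Single values ran from -0.424 to 0.209 in the treatments, -0.431 to 0.386 in the days and -0.040 to 0.067 in the stages. On these medians, no replicate block was used in the main fits. Alternatives were a pseudocount of 0.1, no filter, median centring, libraries of the same time only, a 2-fold limit, DESeq2 1.42.0 and its size factors for the stages, a gene-length term, each library left out and the replicate block. Poisson intervals of the 10x sample cover counting error only, whereas intervals of the bulk comparisons rest on the spread between libraries.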

Additional observations from a re-analysis of the deposited data

Results flagged for a closer look

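The effect of AM580 against Con differed between 24 h and 48 h for 6 of the 10 genes, by limma's test of the difference itself (Benjamini-Hochberg adjusted, 35.0% of all genes tested passed). The log2 difference of the 48 h effect from the 24 h effect was 0.92 for P4ha1 (adjusted p = 1.5e-05), 0.94 for P4ha2 (adjusted p = 2.3e-05), 0.76 for Plod1 (adjusted p = 2.7e-06), 0.27 for Plod3 (adjusted p = 0.012) and 0.49 for Egln1 (adjusted p = 0.00015). It was -0.92 for Egln3 (adjusted p = 1.4e-07). Each effect is taken against Con at its own time.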

How the results depend on the processing

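In the 22 comparisons of 2 groups, with the 2-fold limit left aside, 103 of 132 calls of a member were kept under every alternative. Likewise, 63 of 81 uncalled differences stayed uncalled and 0 reversed. The interactions are not in these counts. With a limit of 2-fold added, the counts of called members are given with the share of all genes in brackets. At 24 h they were 0 for Vc_24h (0.0846%), AM580_24h (0.404%) and V580_24h against AM580_24h (0.0658%), and 1 for V580_24h against Con_24h (0.695%). At 48 h they were 1 for Vc_48h (0.0470%), 3 for AM580_48h (3.23%), 1 for V580_48h against Con_48h (3.18%) and 1 against AM580_48h (0.263%). Con_48h against Con_24h gave 2 (7.72%). Against E12.5_GC they were 1 for V580_D4 (20.4%), 1 for V580_D6 (15.2%), 4 for V580_D8 (13%) and 5 for V580_D10 (16.4%), of 9 genes tested. The steps between days gave 0 (5.08%), 2 (2.55%) and 2 (1.29%), and V580_D4 against V580_48h gave 3 (15.6%). Against E12.5 they were 1 for E13.5 (17%), 0 for E16.5 (16.8%) and 6 for P6w (30%). E16.5 against E13.5 gave 1 (26.1%) and P6w against E16.5 gave 6 (32.6%). With libraries of the same time only, Vc_24h and AM580_24h against Con_24h and V580_24h against AM580_24h gave 2 each. Slc23a1 was not tested in these at 24 h. By contrast, V580_48h against Con_48h gave 8 (7 with all libraries, P4ha1 added). V580_48h against AM580_48h gave 6 (5 with all libraries, P4ha2 added), as also with edgeR on recovered fragments and median centring. Median centring gave 7 for Con_48h against Con_24h (9 without it, P4ha1 and Egln3 lost). E13.5 against E12.5 gave 2 with a length term and 2 with no filter. Leaving out each library in turn gave 0 to 2 calls for AM580_24h, 2 to 3 for V580_24h against AM580_24h, 4 to 5 for Vc_48h, 1 to 2 for E13.5 against E12.5 and 1 to 4 for E16.5 against E12.5. With the replicate block, which the data did not bear out as a pairing, the count for Con_48h against Con_24h was 8 (9 without the block) and for V580_24h against AM580_24h 3 (4 without it), P4ha1 being lost in the former and P4ha2 in the latter, and for E16.5 against E12.5 it was 3 (2 without it). Depth limits Slc23a1 most, with 5 to 28 counts per stage library, and FPKM below 1 moves on the log2(FPKM + 1) scale by less than its ratio. Cluster levels of cluster 9 rest on cells with few UMIs. The causes of these shifts were not tested, except that a 2-fold limit cannot add calls by construction. Fewer libraries gave fewer calls in some comparisons and more in others.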

Other observations

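Of the other genes of vitamin C handling, Slc2a3, a glucose transporter that also carries oxidised vitamin C, rose with AM580 against Con at 48 h (log2 fold change 2.51) and was lower with V580 than with AM580 (-1.04). In the GSCs of P6w against E12.5, 2 of 12 such genes rose and 5 fell (52.9% of all genes were called), with Cyb5a at 2.31 and Rgn, which encodes a lactonase of vitamin C synthesis, at -3.71. Of 12 other hydroxylases tested there, 5 rose and 3 fell, with Phyh at 1.57, P4htm at 1.29, Dbh at -4.19 and Pam at -2.51. Pam, a copper monooxygenase that uses vitamin C, was also lower at V580_D10 than in E12.5_GC (-2.12), where 6 of the 11 tested rose and 3 fell (69.5% of all genes were called).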
